A study of Mus musculus with 28 samples.

Results

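NF-κB is a family of dimeric transcription factors built from 5 subunits, and the genes of all 5, Rela, Rel, Relb, Nfkb1 and Nfkb2, were followed in murine bone marrow-derived macrophages (BMDMs). The genes were chosen by name as the complete set of subunits, 5 of the 54532 genes in the count table, and not by their values. Earlier results of these data were known when they were chosen. All 5 passed the expression filter in every comparison. RNA was sequenced from 28 BMDM cultures, incubated for 3.5 h or 16 h with PBS (control), with 10 µg/ml of plasma-derived human von Willebrand factor (VWF), a clotting glycoprotein, or with 100 ng/ml of the bacterial lipopolysaccharide LPS. There were 5 control, 5 VWF and 4 LPS cultures at each time. The study's methods describe bone marrow from C57/B6JB mice aged 8 to 12 weeks, matured into macrophages with M-CSF. All groups shared serum, M-CSF before treatment and medium with 1 mM CaCl2, so the controls are washed and refed cells rather than undisturbed ones. The labels call the cultures of a group biological replicates without saying whether they came from separate mice, so p values measure only the spread between these cultures, which may be partly technical.

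As background, NF-κB dimers wait in the cytoplasm of resting macrophages, held there by IκB proteins. In the canonical route, signals such as LPS binding to TLR4 activate the IKK kinases, IκB is destroyed and dimers of RelA or c-Rel with p50 enter the nucleus. In the alternative route, the p100 precursor is trimmed to p52, which pairs mainly with RelB. RelA, c-Rel and RelB (from Rela, Rel and Relb) carry the domains that activate transcription, while Nfkb1 and Nfkb2 encode the precursors p105 and p100, which themselves act as inhibitors until they are processed to p50 and p52. Several genes of the system, IκBα and the precursors among them, are known NF-κB targets. Only mRNA was measured here, so neither the location nor the processing of the proteins is seen.

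Total counts per culture ranged from 41131209 to 77699206, and the lowest count of any subunit gene in any culture was 674, for Rel. All 8 macrophage markers checked, among them Csf1r, Adgre1 and Cd68, reached 1 TPM in every group, with a summed level of 7670 to 50700 TPM over the cultures. Of the lists of other cells, that of fibroblasts and stroma had the highest sum, 3.54 to 138 TPM, through Col1a1 (up to 81.1) and Col1a2 (up to 52.8), with ranges that overlapped between all groups. Neutrophil and granule markers summed to 4.28 to 36.8 TPM, with Mmp8 up to 22.1 and Ly6g at or below 0.118. T cell markers summed to 0.371 to 7.9 TPM, with Cd4 up to 7.69 and Cd3e at or below 0.0818, and the B cell gene Cd79b had up to 20.8 TPM. The summed TPM of 4 dendritic cell markers was 0.32 to 0.905 in control cultures and 6.73 to 11.9 in LPS cultures and VWF cultures at 3.5 h, with 0.545 to 1.67 in VWF cultures at 16 h. Its largest member was Xcr1, and Flt3 stayed at or below 0.067 TPM. The part of other cells in the results was not tested. Replicate 5 of the control at 16 h stood apart: its mean correlation with the other cultures of its group was 0.910, against 0.970 to 0.972 for those, and its macrophage markers summed to 7670 TPM, against 30910 to 36790. Also lower than the rest of their groups in the macrophage marker sum were LPS replicate 4 at 16 h (9179 TPM against 16140 to 19010, with a mean correlation of 0.946 against 0.969 to 0.980), VWF replicate 4 at 16 h (28540 against 43660 to 50690) and LPS replicate 1 at 3.5 h (10570 against 17520 to 18180). LPS replicate 4 at 16 h held the lowest Rel, Relb, Nfkb1 and Nfkb2 of its group. Values without these cultures are given below for control replicate 5 and, where they change a call by both thresholds together, for the others. In bulk RNA, fewer cells of a type and less RNA per cell cannot be told apart.

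On GRCm38, Rela (ENSMUSG00000024927) lies on chr19:5637483-5648130 on the plus strand, Rel (ENSMUSG00000020275) on chr11:23736847-23770970 on the minus strand and Relb (ENSMUSG00000002983) on chr7:19606217-19629438 on the minus strand. Nfkb1 (ENSMUSG00000028163) lies on chr3:135584655-135691547 on the minus strand and Nfkb2 (ENSMUSG00000025225) on chr19:46304320-46312385 on the plus strand. No exon of Rela, Rel, Relb or Nfkb1 overlaps another gene in GENCODE M21. For Nfkb2, 18.1% of the exon length overlaps 2 genes on the opposite strand, Psd and AC114539.1. Whether the counts used strand is not given in the sources used here, so reads there cannot be assigned with certainty. Psd itself had 38.8 ± 7.06 CPM (SD, n = 5) with VWF at 3.5 h, where Nfkb2 had 579 ± 34.4 CPM.

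Promoter windows of 300 bases, 250 before and 50 after a transcription start, were available from RefSeq (GRCm38.p6) for 3 of the 5 genes, Nfkb2, Rel and Rela. They are shown because they differ in matches to the κB decamer consensus, the general binding motif of the family itself. Both strands were searched, overlapping matches were joined into one block, and capitals mark the blocks. Of 32851 RefSeq promoter windows, 4.51% held at least 1 match. A match describes these letters and is not evidence of binding.
Nfkb2, start site 1, chr19:46304487-46304786, plus strand: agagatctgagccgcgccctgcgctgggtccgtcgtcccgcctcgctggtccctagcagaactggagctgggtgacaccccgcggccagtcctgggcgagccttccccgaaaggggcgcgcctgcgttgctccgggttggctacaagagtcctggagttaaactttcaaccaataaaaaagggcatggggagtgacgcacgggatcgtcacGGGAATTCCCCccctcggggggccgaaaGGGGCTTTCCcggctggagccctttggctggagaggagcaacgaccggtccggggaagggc
Nfkb2, start site 2, chr19:46305445-46305744, plus strand: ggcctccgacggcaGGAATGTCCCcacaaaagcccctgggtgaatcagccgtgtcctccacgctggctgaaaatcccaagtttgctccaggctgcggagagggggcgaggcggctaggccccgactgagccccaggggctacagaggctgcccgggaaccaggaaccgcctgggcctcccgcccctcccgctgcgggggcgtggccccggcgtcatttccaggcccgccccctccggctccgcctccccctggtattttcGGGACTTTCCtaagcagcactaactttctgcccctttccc
Rel, chr11:23770920-23771219, minus strand: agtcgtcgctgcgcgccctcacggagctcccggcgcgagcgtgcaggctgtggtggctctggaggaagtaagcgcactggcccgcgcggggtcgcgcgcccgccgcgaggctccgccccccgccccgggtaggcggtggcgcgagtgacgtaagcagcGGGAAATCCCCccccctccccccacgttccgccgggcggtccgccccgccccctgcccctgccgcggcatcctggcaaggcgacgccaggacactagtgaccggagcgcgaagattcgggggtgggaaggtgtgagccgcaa
Rela, chr19:5637291-5637590, plus strand: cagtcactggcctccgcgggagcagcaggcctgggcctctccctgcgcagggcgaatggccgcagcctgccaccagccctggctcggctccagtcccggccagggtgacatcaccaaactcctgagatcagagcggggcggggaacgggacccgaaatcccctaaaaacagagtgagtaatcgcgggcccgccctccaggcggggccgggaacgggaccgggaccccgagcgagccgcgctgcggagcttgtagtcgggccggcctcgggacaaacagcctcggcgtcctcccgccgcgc

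Nfkb2 held 2 blocks in the window of its start site 1, GGGAATTCCCC and GGGGCTTTCC, whose first bases lie 39 and 11 bases before the start. The window of start site 2 also held 2 blocks, GGAATGTCCC in its distal part and GGGACTTTCC just after the start. Another Nfkb2 window overlaps that of start site 2 and shares that last block. Rel held 1 block, GGGAAATCCCC, beginning 92 bases before the start, and the Rela window held none, which says only that these letters are absent from it.

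VWF and LPS both raised all 5 subunit mRNAs at 3.5 h, and at 16 h the genes parted. At 3.5 h, all 5 genes passed both thresholds with VWF (adjusted p of 0.05 and absolute log2 fold change of 1), where 14.7% of the 8200 genes tested did so in either direction, and all 5 did so with LPS, where 24.5% of 8190 genes did. At 16 h with VWF, Nfkb2 and Relb were higher than in controls and Rel was lower, 3 genes of 5 against 8.71% of all genes, while Nfkb1 and Rela did not pass the adjusted p, which 27.7% of genes passed. At 16 h with LPS, all 5 were higher by adjusted p alone, which 53.7% of genes passed, and 3 of them, Nfkb1, Nfkb2 and Relb, also by fold, against 27.6% of genes. Over the 5 genes, the median log2 fold change came to 2.09 for VWF and 1.96 with LPS at 3.5 h, and -0.04 and 1.09 at 16 h, while the median of all genes tested lay between -0.03 and 0.00. The VWF and LPS comparisons at one time share their control cultures.

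**Figure D1:**
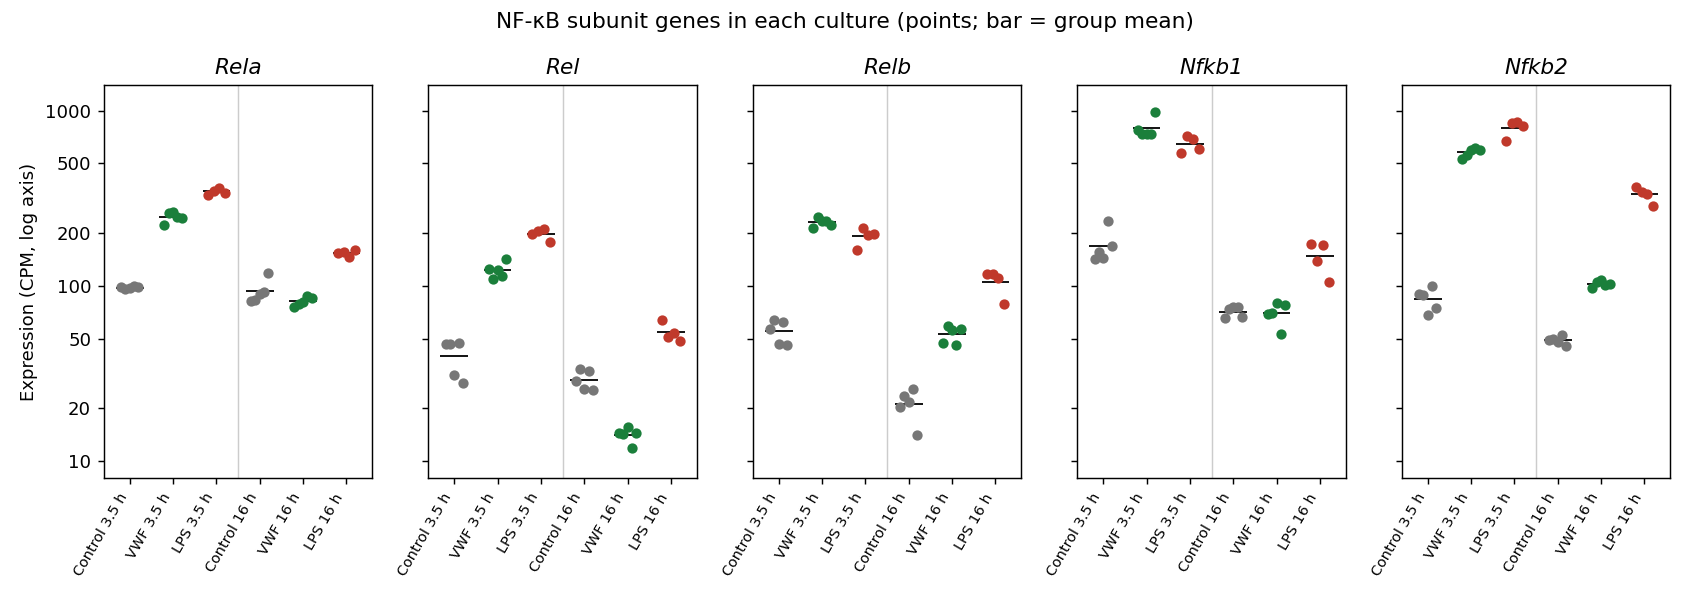
Expression of the 5 NF-κB subunit genes (CPM on a log axis) in each of the 28 cultures, as points ordered by replicate number within a group, with the group mean as a bar. All treated cultures at 3.5 h lie above all controls for every gene, while at 16 h the VWF cultures lie below the controls for Rel, among them for Nfkb1 and Rela, and above them for Relb and Nfkb2. The share of all genes that separate in this way was not counted.

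Rela encodes RelA (p65), the main activating subunit of the canonical route. In CPM (reads scaled by library size and TMM factors), by replicate number, the control cultures at 3.5 h had 98.0, 95.7, 97.4, 100.0 and 98.1, the VWF cultures 223, 259, 263, 247 and 245, and the LPS cultures 331, 349.8, 362 and 339.8. The 3 groups did not overlap, and the coefficient of variation of the controls was 1.6%. Against controls, Rela rose 2.58-fold with VWF (log2 1.37, SE 0.06, adjusted p = 1.11e-08, edgeR, Benjamini-Hochberg over all genes tested) and 3.58-fold with LPS (log2 1.84, SE 0.07, adjusted p = 1.47e-09). At 16 h the controls had 82.2, 83.3, 89.9, 92.4 and 118, the VWF cultures 76.2, 78.5, 80.8, 88.1 and 85.6, and the LPS cultures 154, 155, 147 and 160.0. VWF and control cultures overlapped, and the log2 difference of -0.19 (SE 0.10) did not pass the test (adjusted p = 0.188, edgeR). It was -0.10 (adjusted p = 0.217) without control replicate 5, which held the highest control value, and the adjusted p was 0.0402 with library size scaling and 0.0425 with all groups in one fit. With LPS every culture remained above every control, with a log2 fold change of 0.76 (SE 0.12, adjusted p = 0.000414), which was 0.86 without control replicate 5 and 0.23 (adjusted p = 0.03) with library size scaling.

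Rel encodes c-Rel, an activating subunit best known from lymphocytes and from cytokine genes in myeloid cells. At 3.5 h the controls had 46.5, 46.5, 31.0, 47.0 and 27.9 CPM, the VWF cultures 124, 110.0, 123, 113 and 143, and the LPS cultures 198, 205, 209.8 and 179. No groups overlapped, and the rise was 3.14-fold with VWF (log2 1.65, SE 0.16, adjusted p = 6.41e-06, edgeR) and 5.04-fold with LPS (log2 2.33, SE 0.17, adjusted p = 3.51e-07). At 16 h the controls had 28.5, 33.5, 25.8, 32.6 and 25.4 CPM and the VWF cultures 14.4, 14.3, 15.6, 12.0 and 14.4, so that every VWF culture lay under every control. The log2 fold change was -1.05 (SE 0.12, adjusted p = 6.31e-05), near the fold threshold: it was -0.99 without control replicate 2, -0.99 without VWF replicate 4, -0.99 with edgeR's own expression filter and -0.98 with no filter, with the adjusted p under the threshold in each. It was -1.10 without control replicate 5. The LPS cultures had 64.2, 50.9, 53.6 and 48.5 CPM, above every control, with a log2 fold change of 0.93 (SE 0.12, adjusted p = 0.00015), which missed the adjusted p with library size scaling (0.39, adjusted p = 0.0698) and was 0.89 without control replicate 5. It passed both thresholds with edgeR's own expression filter (1.02, adjusted p = 5.73e-05) and with no filter (1.02, adjusted p = 8.5e-05). Rel was the one subunit that passed both thresholds in the lower direction against controls, and it did so with VWF at 16 h. There the VWF cultures had 3.78 to 6.36 TPM, under the 10 TPM of the expression filter. Rel passed that filter through the controls, which had 7.23 to 14.3 TPM.

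Relb encodes RelB, the partner of p52 in the alternative route. At 3.5 h the controls had 56.8, 63.5, 46.4, 62.3 and 45.9 CPM, the VWF cultures 213, 248, 235, 235 and 221, and the LPS cultures 160.1, 213, 195 and 198. Relb rose 4.27-fold with VWF (log2 2.09, SE 0.11, adjusted p = 3.78e-08, edgeR) and 3.54-fold with LPS (log2 1.82, SE 0.13, adjusted p = 2.94e-07), and the VWF and LPS cultures overlapped. At 16 h the controls had 20.3, 23.6, 21.7, 25.8 and 14.2 CPM, the VWF cultures 47.4, 58.7, 56.2, 45.8 and 56.4, and the LPS cultures 117, 116, 110.2 and 79.1, with no overlap between groups. The log2 fold change was 1.31 (SE 0.16, adjusted p = 0.000133) with VWF and 2.36 (SE 0.19, adjusted p = 4.55e-06) with LPS. Without control replicate 5, the lowest culture, these were 1.20 and 2.24. The mean level in VWF cultures at 16 h, 52.9 CPM, was close to the 55.0 CPM of the controls at 3.5 h and their ranges overlapped, while the controls at 16 h had a mean of 21.1 CPM.

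Nfkb1 encodes p105, the precursor of p50. At 3.5 h the controls had 141, 155, 145, 236 and 168 CPM, the VWF cultures 772, 732, 735, 738 and 975, and the LPS cultures 575, 717, 685 and 605. Every VWF culture lay above every LPS culture, and both above the controls. The rise was 4.78-fold with VWF (log2 2.26, SE 0.15, adjusted p = 3.03e-07, edgeR) and 3.88-fold with LPS (log2 1.96, SE 0.15, adjusted p = 5.15e-07). At 16 h the controls had 65.2, 73.4, 75.9, 75.4 and 66.3 CPM and the VWF cultures 69.0, 70.3, 79.8, 52.8 and 77.4, which overlapped. The log2 difference was -0.04 (SE 0.12, adjusted p = 0.87), -0.06 without control replicate 5, and its sign turned in 3 alternatives. The LPS cultures had 174, 139, 171 and 105 CPM, all above the controls, with a log2 fold change of 1.09 (SE 0.15, adjusted p = 0.000172) that was 0.999 without LPS replicate 1, 1.06 without control replicate 5 and 0.55 with library size scaling.

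Nfkb2 encodes p100, the precursor of p52, and showed the largest rise of the 5 genes against controls with VWF at 3.5 h and with LPS at both times. At 3.5 h the controls had 90.2, 89.2, 68.1, 100.4 and 74.3 CPM, the VWF cultures 529, 557, 597, 611 and 599, and the LPS cultures 668, 848, 862 and 811. The groups did not overlap, with a rise of 6.99-fold with VWF (log2 2.80, SE 0.11, adjusted p = 6.7e-09, edgeR) and 9.59-fold with LPS (log2 3.26, SE 0.13, adjusted p = 3.87e-09). At 16 h the controls had 49.1, 49.9, 48.0, 52.4 and 45.3 CPM, the VWF cultures 97.1, 105, 109, 101 and 102, and the LPS cultures 368, 342, 333 and 286. The order of control, VWF and LPS held with no overlap, with a log2 fold change of 1.06 (SE 0.07, adjusted p = 2.25e-06) for VWF and 2.80 (SE 0.10, adjusted p = 3.22e-08) for LPS, or 1.03 and 2.77 without control replicate 5. Nfkb2 and Relb, the pair of the alternative route, were thus the 2 subunit genes higher than controls at 16 h with VWF.

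**Figure D2:**
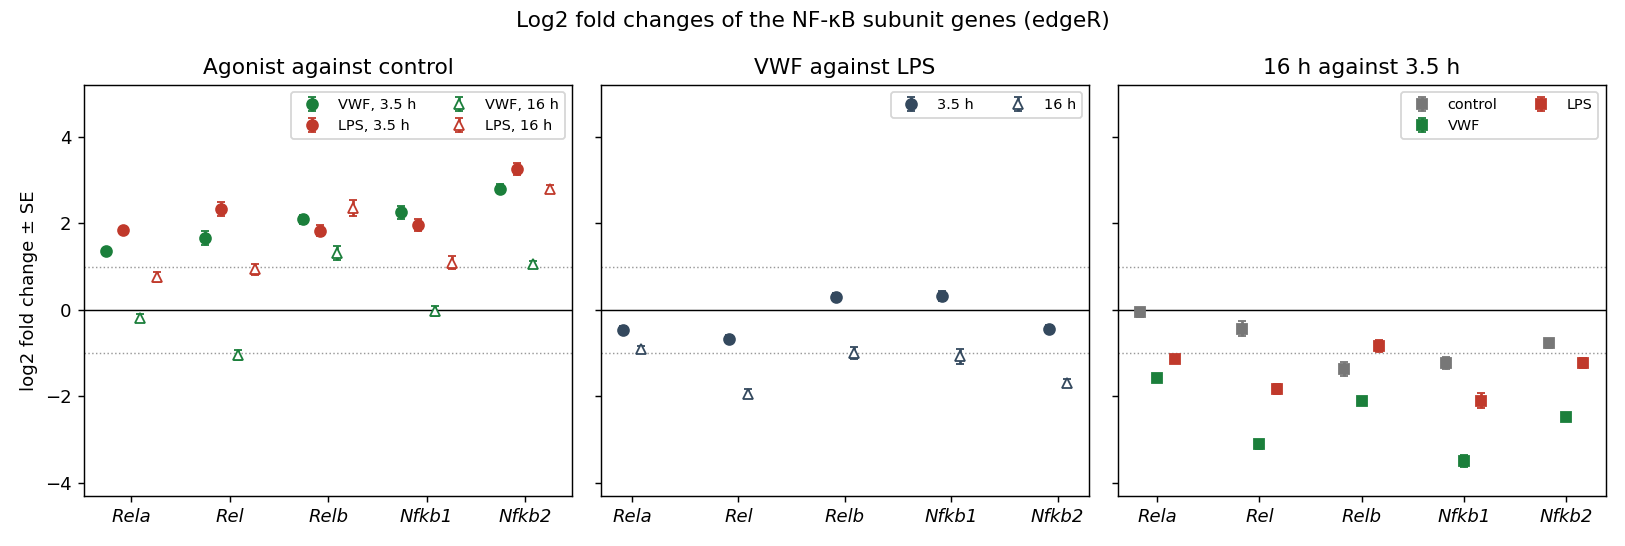
Log2 fold changes (± SE) of each subunit gene: VWF and LPS against control, VWF against LPS, and 16 h against 3.5 h, with zero as a solid line and the fold threshold dotted. In the panel of VWF against LPS the 16 h values lie under the 3.5 h values for every gene, and in the time panel the VWF values are the lowest of each gene.

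VWF and LPS were next compared directly. At 3.5 h the differences were small: by adjusted p alone, which 50.2% of genes passed, all 5 genes differed, but 0 of 5 passed the fold threshold, against 11.4% of genes. Levels with VWF were lower than with LPS for Rel (log2 -0.67, SE 0.09, adjusted p = 0.000175, edgeR), Rela (-0.46, SE 0.07, adjusted p = 0.000481) and Nfkb2 (-0.44, SE 0.09, adjusted p = 0.00313). They were higher for Nfkb1 (0.32, SE 0.12, adjusted p = 0.0417) and Relb (0.29, SE 0.09, adjusted p = 0.0254). Whether Nfkb1 and Relb passed depends on the setting, since the adjusted p was above 0.05 in 11 and 7 of 16 alternatives, with highest values of 0.169 and 0.177. Among these was leaving out LPS replicate 1, with adjusted p of 0.107 and 0.055 (edgeR). Library size scaling moved the median of all genes by 0.288 here. The log2 differences with it were 0.61 for Nfkb1 (adjusted p = 0.00153), 0.58 for Relb (adjusted p = 0.00026), -0.38 for Rel (adjusted p = 0.0086), -0.17 for Rela (adjusted p = 0.0391) and -0.15 for Nfkb2 (adjusted p = 0.136).

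At 16 h every VWF culture lay under every LPS culture for all 5 genes. The share of all genes whose groups separate in this way was not counted, here or in the other comparisons. All 5 passed the adjusted p, as did 60.5% of genes. Rel was lower with VWF by 3.83-fold (log2 -1.94, SE 0.11, adjusted p = 4.14e-07, edgeR), Nfkb2 by 3.23-fold (log2 -1.69, SE 0.09, adjusted p = 2.29e-07) and Nfkb1 by 2.10-fold (log2 -1.07, SE 0.17, adjusted p = 0.000426). These 3 of 5 also passed the fold threshold, against 25.5% of genes. Relb (-0.996, SE 0.14, adjusted p = 0.00015) lay just inside it and Rela (-0.91, SE 0.07, adjusted p = 2.85e-06) below it. In this comparison same-numbered cultures deviated together, at correlations of 0.16 to 0.78. Cultures with different numbers were not compared, and the labels do not explain the numbers, so pairing is not established. As an alternative, with the replicate block Relb was at -1.01 (adjusted p = 2.06e-05, edgeR), and 4 of 5 passed. Relb also passed, at -1.12, without LPS replicate 4, and at -1.01 to -1.04 without VWF replicate 2, 3 or 5. Nfkb1 was at -0.99 without LPS replicate 1, at -0.98 without VWF replicate 4 and at -0.64 with library size scaling.

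Over time, all subunit levels were lower at 16 h with VWF. All 5 passed both thresholds between VWF at 16 h and at 3.5 h, against 21.4% of genes, from -3.49 (SE 0.14) for Nfkb1 and -3.11 (SE 0.10) for Rel to -2.49 for Nfkb2, -2.11 for Relb and -1.59 (SE 0.07) for Rela on the log2 scale. With LPS, 4 of 5 passed both, against 28.1% of genes, with -2.10 for Nfkb1, -1.84 for Rel, -1.24 for Nfkb2 and -1.14 for Rela. Relb, at -0.83 (SE 0.14), passed by adjusted p alone (0.000879), as did 60.9% of genes. The controls also differed with time: Relb (-1.37, SE 0.16) and Nfkb1 (-1.24, SE 0.14) fell past both thresholds, 2 of 5 against 9.11% of genes, with -1.26 and -1.22 without control 16 h replicate 5. Nfkb2 (-0.78, SE 0.11) passed the adjusted p alone, as 41.4% of genes did. Rel (-0.44, adjusted p = 0.0587, edgeR) and Rela (-0.06, adjusted p = 0.66) did not pass, but Rel passed in 7 of 17 alternatives, DESeq2 among them (adjusted p = 0.0341), and Rela did without control 16 h replicate 5 (-0.17, adjusted p = 0.0274). What PBS, washing and fresh medium contribute to the control change cannot be told apart from culture time.

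Because the controls moved, the change of each response with time was tested as an interaction, the effect at 16 h minus the effect at 3.5 h. For VWF, 4 of 5 genes passed both thresholds, against 13.5% of genes: Rel (-2.69, SE 0.20), Nfkb1 (-2.27, SE 0.20), Nfkb2 (-1.72, SE 0.12) and Rela (-1.54, SE 0.12), with adjusted p between 2.3e-09 and 2.81e-08 (edgeR). Relb changed less, -0.76 (SE 0.18, adjusted p = 0.00317), a size that passed by adjusted p alone, as 32.4% of genes did. Without control 16 h replicate 5, Rela was at -1.43 and Relb at -0.86. For LPS, Rel (-1.39, SE 0.22) and Rela (-1.07, SE 0.13) passed both, 2 of 5 against 26.3% of genes, and Rela was at -0.96 without control 16 h replicate 5. Nfkb1 (-0.85, adjusted p = 0.00485) and Nfkb2 (-0.44, adjusted p = 0.0283) passed by adjusted p alone, as 48.8% of genes did, with Nfkb1 at -1.01 without control 3.5 h replicate 4 and the adjusted p of Nfkb2 above 0.05 in 6 of 25 alternatives. For Relb the LPS effect was larger at 16 h by 0.55 (SE 0.23), which did not pass (adjusted p = 0.0523), although it passed in 9 of 25 alternatives, among them without LPS 16 h replicate 4 (0.66, adjusted p = 0.0172).

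The difference between VWF and LPS itself changed with time. It moved toward lower values with VWF for Nfkb1 (-1.41, SE 0.21), Relb (-1.30, SE 0.16), Rel (-1.29, SE 0.14) and Nfkb2 (-1.27, SE 0.12), 4 of 5 past both thresholds against 25.0% of genes, with adjusted p between 1.38e-07 and 2.72e-05 (edgeR). Rela moved less, by -0.47 (SE 0.09, adjusted p = 0.000363), passing by adjusted p alone like 52.7% of genes. No control culture enters this contrast. Without LPS 16 h replicate 4 the values were -1.54 for Nfkb1, -1.41 for Relb, -1.33 for Rel, -1.33 for Nfkb2 and -0.44 for Rela.

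Levels can be compared between genes only per length, so TPM over the union of exons was used for the make-up of the family. The summed TPM of the 5 genes was 272 ± 45.6 (SD, n = 5) in controls, 977 ± 97.3 (n = 5) with VWF and 851 ± 94.3 (n = 4) with LPS at 3.5 h, and 164 ± 21.8, 196 ± 24.0 and 356 ± 67.4 at 16 h. TPM carries no TMM factor, and these factors at 3.5 h were 0.796 to 0.84 with LPS and 0.971 to 1.08 with VWF. The sums therefore do not rank VWF and LPS at 3.5 h, while shares within a culture need no such factor. Rela made up 38.3% ± 3.54 of the sum in controls at 3.5 h and 53.7% ± 5.38 at 16 h, and was the largest share in both control groups. Without replicate 5 of the controls at 16 h, the sum there was 173 ± 11.2 (n = 4) and the share of Rela 51.4% ± 1.44. With VWF or LPS at 3.5 h it made up 23.2% ± 1.15 and 27.1% ± 1.45, and Nfkb2 was the largest share, at 36.3% ± 1.17 and 41.8% ± 1.54, against 21.9% ± 1.46 in controls. At 16 h Nfkb2 still held 42.8% ± 0.894 with LPS, while with VWF Rela (37.9% ± 2.46) was again ahead of Nfkb2 (31.9% ± 0.740). Rel had the smallest share in every group, from 2.69% ± 0.228 with VWF at 16 h to 6.98% ± 1.03 in controls at 16 h. These shares are descriptions with no test and depend on the gene length used. The union of Nfkb1 exons is 12061 bases against 4149 for its longest transcript, and with the latter its share rose from 18.8% to 36.6% with VWF at 3.5 h, above that of Nfkb2 (29.0%), and from 16.6% to 33.5% in controls at 3.5 h, above that of Rela (30.1%).

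**Figure D3:**
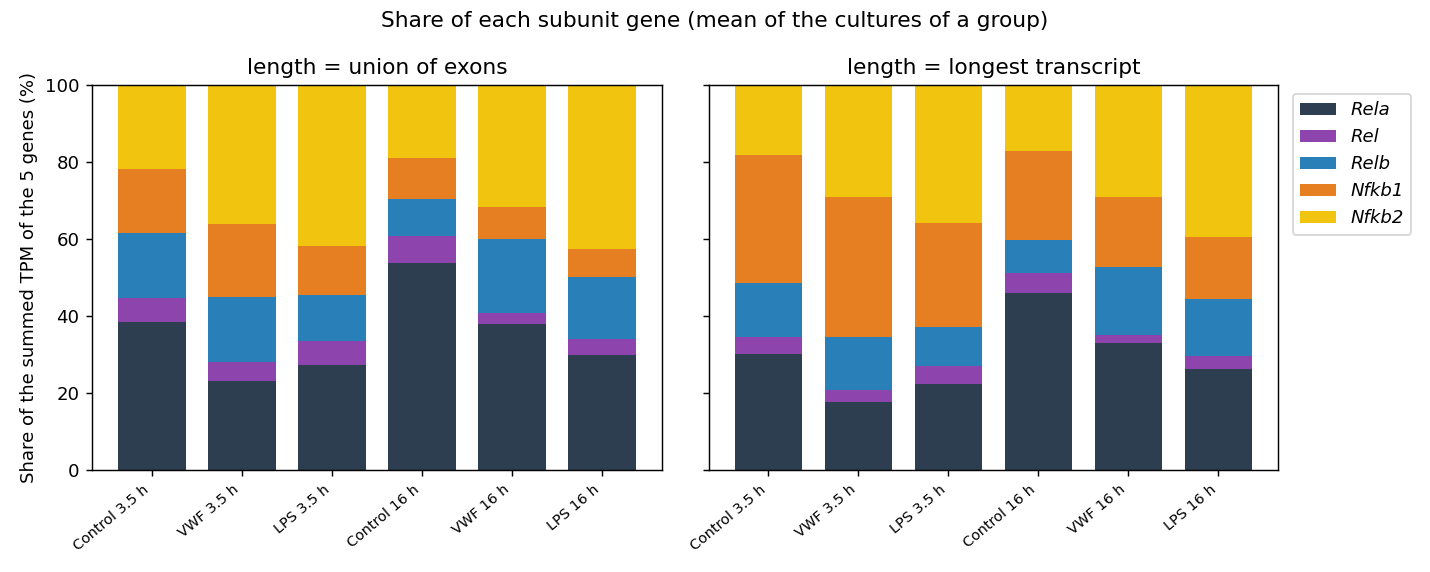
Share of each subunit gene in the summed TPM of the 5 genes (%, mean over the cultures of a group), with the union of exons or the longest transcript as gene length. Rela takes a larger share in controls at 16 h than in any other group and Nfkb2 a larger share after VWF or LPS under both lengths, while the share of Nfkb1 depends on the length.

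Ratios of counts within a culture need no scaling between cultures. The log2 ratio of Relb to Rela was -0.85 ± 0.227 (SD, n = 5) in controls, -0.10 ± 0.0487 with VWF and -0.86 ± 0.146 (n = 4) with LPS at 3.5 h, so VWF alone differed in range from the controls. At 16 h it was -2.16 ± 0.511, -0.63 ± 0.199 and -0.56 ± 0.306, with both treatments above all controls, which had -1.93 ± 0.117 (n = 4) without replicate 5. The log2 ratio of Rel to Rela was -2.54 ± 0.207 with VWF at 16 h, the lowest of the 6 groups, with a range from -2.88 to -2.37 that lay under that of every other group. The log2 ratio of the precursors, Nfkb2 to Nfkb1, went from -0.99 ± 0.253 in controls at 3.5 h to 1.20 ± 0.217 with LPS at 16 h. These ratios depend on gene lengths in their level, but not in their differences between groups.

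The other genes of the pathway were a list of 56 in 5 roles. It was drawn up with earlier results of these data known, so its shares against all genes only describe it. With VWF at 3.5 h, 24 were higher and 1 was lower past both thresholds of 53 tested, 47.2% of them, against 14.7% of all genes. LPS at 3.5 h gave 24 higher and 1 lower of 51 tested, 49.0% against 24.5%. At 16 h the counts were 8 higher and 2 lower of 49 with VWF, 20.4% against 8.71%, and 25 higher and 0 lower of 50 with LPS, against 27.6% of all genes. The same shares over all genes stand behind the counts by role, and the counts cover only the genes past the expression filter, which a gene can pass through the treated group alone. Among the IκB proteins and BCL3, the direct partners of the subunits, 5 of 6 rose with both agents at 3.5 h. Nfkbiz, a nuclear IκB that acts as a co-activator, rose by 4.69 (SE 0.16) with VWF and 4.47 (SE 0.17) with LPS on the log2 scale, Nfkbie (IκBε) by 3.14 and 3.22, and Nfkbia (IκBα, the main cytoplasmic inhibitor) by 2.82 and 3.01. At 16 h with VWF, Nfkbia (1.68, SE 0.20) and Bcl3, a partner of p50 and p52 (1.59, SE 0.10), were higher and Nfkbid, another nuclear IκB, was lower (-1.58, SE 0.10). With LPS at 16 h, Nfkbia (3.60), Nfkbie (3.49) and Bcl3 (3.23) were higher.

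In the role of the IKK complex and upstream kinases, which also holds non-kinase partners, 5 of 14 tested rose with VWF at 3.5 h. They were led by Irak3 (2.74, SE 0.17), a brake on TLR signaling, Map3k8 (2.52), the kinase TPL2 that p105 binds, and Ikbke (2.04). With LPS at 3.5 h, 4 of 14 rose, led by Map3k8 (3.19), Ikbke (2.17) and Tab2 (1.54), and 1 fell, Tab1 (-1.42, SE 0.11). Tab1 was also lower with VWF at 3.5 h, by adjusted p alone (-0.88, adjusted p = 5.62e-05, edgeR), which 43.6% of genes passed. At 16 h with VWF, 2 of 15 passed, Irak3 (1.85) and Ikbke (1.02), and Ikbke was under the fold threshold with library size scaling (0.98) and at 0.97 to 0.99 without control replicate 1, VWF replicate 2 or VWF replicate 3. With LPS at 16 h 5 of 14 passed, led by Irak3 (2.41), Ikbke (2.32) and Irak2 (1.85). Among adaptors, Traf1, a signaling adaptor of TNF receptors, rose by 5.32 (SE 0.21) with VWF and 5.23 (SE 0.22) with LPS at 3.5 h, beside Birc3 (cIAP2, a ubiquitin ligase; 2.44 and 2.12) and Myd88 (the TLR adaptor; 2.13 and 2.62). At 16 h Birc3 (1.15) was the 1 adaptor of 8 tested past both thresholds with VWF, and with LPS 5 of 9 tested were, led by Traf1 (5.57), Birc3 (2.47) and Traf2 (2.00). Traf1 was under the expression filter for VWF at 16 h and not tested there. It had 19.3 ± 1.91 CPM with VWF against 5.59 ± 1.08 in controls, with no overlap.

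**Figure D4:**
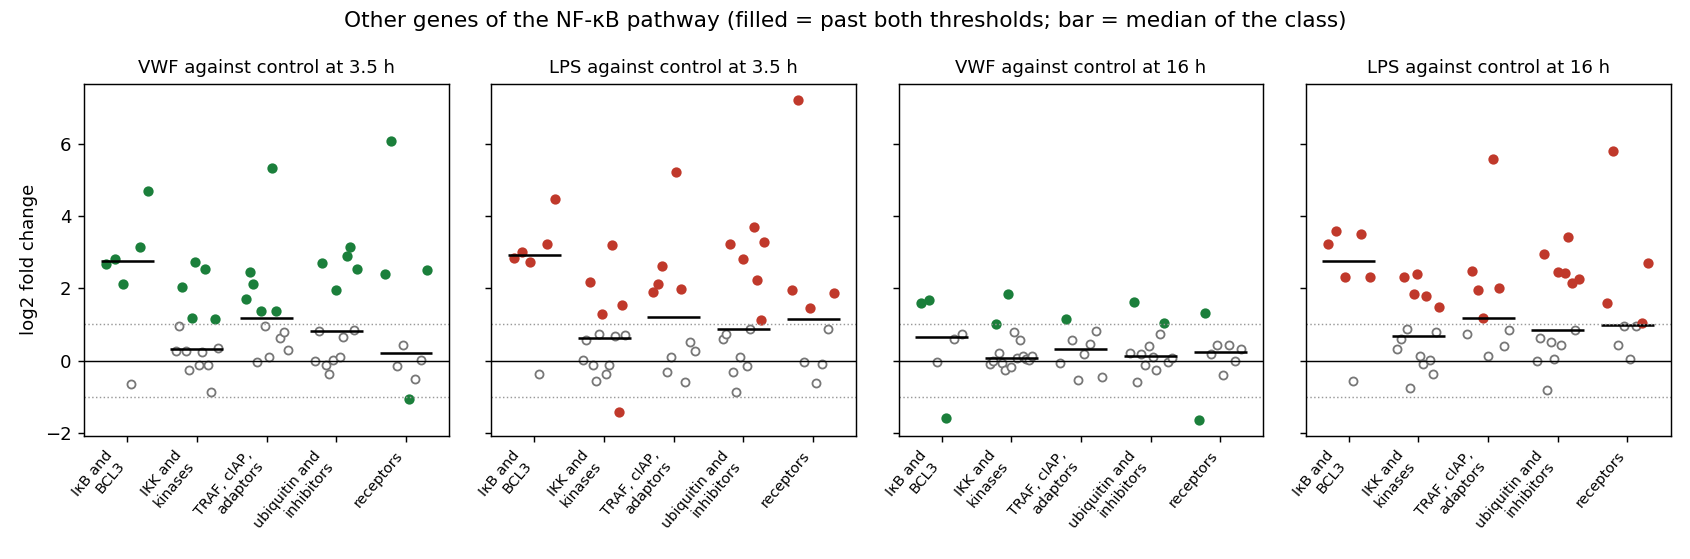
Log2 fold changes against control of the other genes of the NF-κB pathway tested, by role, for VWF and LPS at 3.5 h and 16 h, with filled points past both thresholds and the class median as a bar. The class of IκB and BCL3 proteins has the highest median in all 4 panels, and the VWF panel at 16 h holds the fewest filled points, 10 of 49.

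The list of ubiquitin editors and other inhibitors also holds Rnf31, Rbck1 and Sharpin, the ligase complex known to promote NF-κB signaling. With VWF at 3.5 h, 5 of its 13 genes rose, led by Tnip1 (3.14, SE 0.13), Tnfaip3 (A20, which removes ubiquitin chains; 2.90) and N4bp1 (2.70), and with LPS 6 of 13, led by Tnfaip3 (3.70), Tnip3 (3.29) and N4bp1 (3.23). At 16 h with VWF N4bp1 (1.61) and Tnip1 (1.03) were the 2 of 12 past both thresholds, Tnip1 only narrowly: 0.97 without control replicate 5, 0.98 without VWF replicate 3 and 0.97 with library size scaling. With LPS at 16 h 6 of 13 passed, led by Tnfaip3 (3.41), N4bp1 (2.94) and Rnf31 (2.44). Of the 8 receptors tested at 3.5 h, 3 rose and 1 fell with VWF, and 4 rose with LPS. Cd40, which feeds the alternative route, rose by 6.08 (SE 0.16) with VWF and by 7.21 (SE 0.16) with LPS. Beside it rose Tnfrsf1b (2.50 and 1.87) and Cd14, the LPS co-receptor (2.40 and 1.96). The receptor that fell with VWF was Tlr4 (-1.07, SE 0.17), near the fold threshold. With LPS at 3.5 h Tlr4 was lower by adjusted p alone (-0.62, adjusted p = 0.00829, edgeR), which 65.7% of genes passed. Between VWF and LPS it did not pass (-0.43, adjusted p = 0.0617, edgeR). At 16 h with VWF 2 of 8 passed, Cd40 higher (1.31) and Cd14 lower (-1.63, SE 0.13). With LPS 4 of 8 were higher, led by Cd40 (5.79), Tnfrsf1b (2.70) and Cd14 (1.60). Where these named genes passed both thresholds against controls, their adjusted p lay between 1.05e-10 and 0.000361 (edgeR). Directly compared, VWF differed from LPS past both thresholds in 5 of 53 list genes at 3.5 h, 3 higher and 2 lower (9.43%, against 11.4% of all genes), and in 24 of 52 at 16 h, all 24 lower with VWF (46.2%, against 25.5%).

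The genes with the most similar pattern to each subunit over the 6 group means were sought among 8042 genes, as the smallest root mean square difference in log2 CPM after centring. For Rela, Dock10 (0.11), Lrch1 (0.13) and Rab12 (0.13) were nearest, and for Relb, Birc3 (0.17), 2210406H18Rik (0.25) and Plpp3 (0.25). For Nfkb2 these were Bcl3 (0.24), Ehd1 (0.26) and Cflar (0.28), for Rel Cemip2 (0.27), Etv3 (0.30) and Zfp800 (0.35), and for Nfkb1 Ezr (0.27), Mllt6 (0.33) and Oaf (0.35). No subunit was among the 3 nearest of another. Birc3, the nearest to Relb, had 37.7, 200.3 and 161 CPM in control, VWF and LPS cultures at 3.5 h and 19.5, 43.7 and 106 CPM at 16 h. The measure describes 6 means and carries no test.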

How the data were processed

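Bulk RNA-seq covered 28 BMDM cultures in 6 groups. The authors aligned paired reads of 150 bases to GRCm38 (mm10) with STAR, as the submitters' processing notes and the methods state, and deposited raw whole-number counts per gene with no normalization; for annotation, strand and multi-mapping, nothing is stated in the sources used here. No row without a gene identifier entered the fits, and no column was left unmapped.

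Symbols, exon lengths and loci were taken from GENCODE M21, and TPM was computed from counts and union exon lengths. A comparison kept genes reaching 10 TPM in at least 1 of its cultures. Only the groups compared entered each fit, by edgeR 4.0.16 (R 4.3.3; TMM, robust quasi-likelihood F test, Benjamini-Hochberg over all genes tested), with calls at an adjusted p of 0.05 and absolute log2 fold change of 1, the thresholds of the study's methods, which used DESeq2. Per-culture CPM used TMM factors over all cultures, which lay between 0.735 and 0.848 in LPS cultures and 0.945 and 1.18 in the others. DESeq2 1.42.0, other scalings and filters, a single fit, the replicate block and leaving out each culture were alternatives. Shares, sums and ratios of the 16 h controls without replicate 5 are an alternative chosen with the values in view.

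The members and lists were chosen with earlier results of these data known. Named were the 5 subunits and the 3 genes most like each of them. For each role of the 56 pathway genes, up to 3 called genes with the largest change per agent and time were named. Tlr4 and Tab1 were added as the list genes called lower at 3.5 h. Psd and the cell markers are checks, and AC114539.1 is named only for its overlap with Nfkb2. Same-numbered cultures deviated together, at correlations over 0.1 in all 4 pairs (0.16 to 0.78), only for VWF and LPS at 16 h. Cultures with different numbers were not compared and the labels do not explain the numbers, so pairing is not established. No cultures of a group were duplicates (chi-square per degree of freedom at least 24.8 over 52 pairs). The test was checked on simulated data.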

Additional observations from a re-analysis of the deposited data

Results flagged for a closer look

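Of 30 groups of subunit values, 3 held a culture far from the others by Dixon's criterion, where chance gives about 1 in 20. Nfkb1 was 235.7 CPM in control replicate 4 at 3.5 h, against 168.0 in the next culture, and 975.3 CPM in VWF replicate 5 at 3.5 h, against 771.5. Rela was 117.7 CPM in control replicate 5 at 16 h, against 92.4, in the culture that also stood apart in its markers. That value depends on the scaling: the TMM factor of this culture was 0.945, against 1.17 to 1.18 in the other controls at 16 h. In TPM, which carries no TMM factor, its Rela was the lowest of the group, 81.5 against 81.8 to 95.3. Without the first, the LPS effect on Nfkb1 changed by -1.01 with time and passed the fold threshold.

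In 10 of 15 interactions of a subunit with time, the effect differed between 3.5 h and 16 h past both thresholds (edgeR, tested as the difference itself). The VWF effect differed by -2.27 for Nfkb1, -1.72 for Nfkb2, -2.69 for Rel and -1.54 for Rela on the log2 scale, where 13.5% of all genes passed. The LPS effect differed by -1.39 for Rel and -1.07 for Rela, where 26.3% of all genes passed. The difference between VWF and LPS changed by -1.41 for Nfkb1, -1.27 for Nfkb2, -1.29 for Rel and -1.30 for Relb, where 25.0% passed. This last contrast is the difference between the VWF and LPS interactions, so the 15 are not separate results.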

How the results depend on the processing

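There were 7 alternatives (DESeq2, 2 other scalings, 2 other filters, a single fit and the replicate block). Over these, 409 of 420 subunit fold changes kept their direction and their call by both thresholds together. With 1 culture left out, 688 of 700 did. A gene under the fold threshold that crossed only the adjusted p counts as kept here. Nfkb1 and Relb between VWF and LPS at 3.5 h crossed it in 11 and 7 of 16 alternatives, and Relb in the LPS interaction in 9 of 25. The number of subunits called moved by at most 1 from the values reported. With a culture left out it was 1 to 3 for the LPS interaction (1 without control 16 h replicate 5), for LPS against control and for VWF against control at 16 h 2 to 3, and for VWF against LPS at 16 h 2 to 4. The sign of Nfkb1 with VWF at 16 h turned to 0.0238 with edgeR's filter and 0.0341 with no filter, and with a culture left out it lay between -0.0833 and 0.0607 (the latter without VWF replicate 4); the cause was not tested. With the replicate block, 3 subunits were called for VWF against control at 16 h and 4 for VWF against LPS at 16 h, where it changed 1 call of 60. Outside that comparison same-numbered cultures did not all deviate together.

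Library size scaling moved the median of all genes by -0.521 and -0.54 for LPS against control at 3.5 h and 16 h and by 0.441 for VWF against LPS at 16 h. Low filters raised the count of all genes called, from 1206 to 2099 or 2366 for VWF and from 2010 to 3917 or 4542 for LPS at 3.5 h, and from 679 to 1362 or 1378 and from 2210 to 4087 or 4224 at 16 h, since more genes were tested. For VWF against LPS it rose from 856 to 1776 or 1942 at 3.5 h and from 1932 to 3897 or 4242 at 16 h. Over time it rose from 759 to 1565 or 1524 in controls, 1696 to 3458 or 3974 with VWF and 1964 to 4116 or 4298 with LPS, and for the interactions from 1171 to 1972 or 1904, 2301 to 3790 or 3613 and 2052 to 3576 or 3528. With the longest transcript as length 28 of 30 shares moved by more than 1 SD. With a 1 TPM filter, 1 to 3 of the 3 genes nearest to each subunit remained. With 4 or 5 cultures a group, genes near the fold threshold, such as Rel with VWF and Relb between VWF and LPS at 16 h, can fall on either side.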
